A study of Drosophila melanogaster with 6 samples.

Results

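The 10 genes described here encode the core of bone morphogenetic protein (BMP) and activin signalling in the fly. The rule takes them by gene symbol and uses no measured value, although the list was drawn up with earlier results of these data known. All 10 were found among the 13517 genes of the deposited table. They comprise the ligand genes gbb and mav, the type II receptor genes wit and put, the type I receptor genes tkv, sax and babo, and the Smad genes Mad, Smox and Med. RNA came from muscle-enriched lysates of late Drosophila melanogaster larvae of the third instar, with 7 to 10 larvae pooled per sample. One group carried Mhc-Gal4 and UAS-twinstarRNAi, which lowers the actin-severing protein cofilin (gene tsr), and the other carried Mhc-Gal4 and UAS-mCherryRNAi, a control knockdown aimed at a fluorescent protein gene that is foreign to the fly. Each group had 3 samples, which the labels number as biological replicates. The Mhc promoter drives Gal4 in muscle, so the knockdown is aimed at muscle, whereas the lysates hold RNA of every tissue left on the body wall. The labels name adult body wall as the tissue but larvae in the growth protocol and design text, and the larval stage is followed here.

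BMP and activin ligands of the TGF-beta family bind a complex of type II and type I receptor kinases. The type I receptor phosphorylates a receptor-regulated Smad, which joins the common Smad Medea and regulates transcription in the nucleus. At the larval neuromuscular junction, Gbb released by muscle acts on the receptor Wit in motor neurons as a retrograde signal for synaptic growth, while the activin branch through Babo and Smox acts in muscle itself on growth and on glutamate receptor levels. These statements are background from earlier work and not results of these data.

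The targeted gene was checked first. The scaled count of tsr, a read count divided by a size factor for the sample, was 6966, 7070 and 5035 in the tsr knockdown samples, against 39133, 29266 and 25816 in the control knockdown samples. The groups were well apart, with a log2 fold change of -2.30 (SE 0.21, limma adjusted p = 0.00525). Between 37138289 and 41900871 reads fell in genes per sample. Control replicate 2 stood apart from the other controls, with a correlation across genes of 0.759 and 0.813 with control replicates 1 and 3, which correlated at 0.951 with each other. The tsr knockdown samples correlated at 0.959 to 0.963. The 10 larval muscle markers examined, such as Mhc and Mlc2, were all highly expressed, summing to 5566380 to 7910020 scaled counts in the tsr knockdown and 3174850 to 4721430 in the control knockdown. None of the marker genes of other tissues was at 0 in all samples. Markers of neurons summed to 21819 to 25815 scaled counts in the tsr knockdown, against 4323 to 9876 in the control knockdown.

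None of the 10 BMP and activin genes passed the test for a difference between tsr knockdown and control knockdown. By limma on log2(scaled count + 1), with Benjamini-Hochberg adjustment over 11720 genes and a threshold of 0.05, 0 of 10 were called, where 11.6% of all tested genes were, 4.58% as higher and 7.02% as lower in the tsr knockdown. All 10 genes were expressed well above the filter of a mean of 10, and the lowest value, that of wit in one tsr knockdown sample, still rested on 568 reads. The receptor genes wit and tkv came nearest to a call and were the only members with an unadjusted p-value under 0.05 (2 of 10), a mark that 29.1% of all tested genes reached, 15.1% with lower values in the tsr knockdown. edgeR's quasi-likelihood test also gave 2 of 10 at an unadjusted p-value under 0.05 and 0 of 10 after adjustment. DESeq2 gave 3 and 2, its adjusted calls being wit and tkv, both lower, where it called 13.9% of all genes lower and 11.1% higher. Log2 fold changes lay below 0 in 9 of the 10 genes, against 46.1% of all tested genes, and had a median of -0.15, against 0.06 for all tested genes. The all-gene median changed with the setting. It fell to -0.01 when the filter was raised to 50, to -0.08 with DESeq2 and to -0.09 with edgeR and TMM scaling. It rose to 0.08 with no filter and to 0.15 with upper quartile scaling. Whether the members lay lower than genes of like abundance was not tested. In a bulk lysate, fewer cells of a type and less RNA per cell cannot be told apart.

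**Figure D1:**
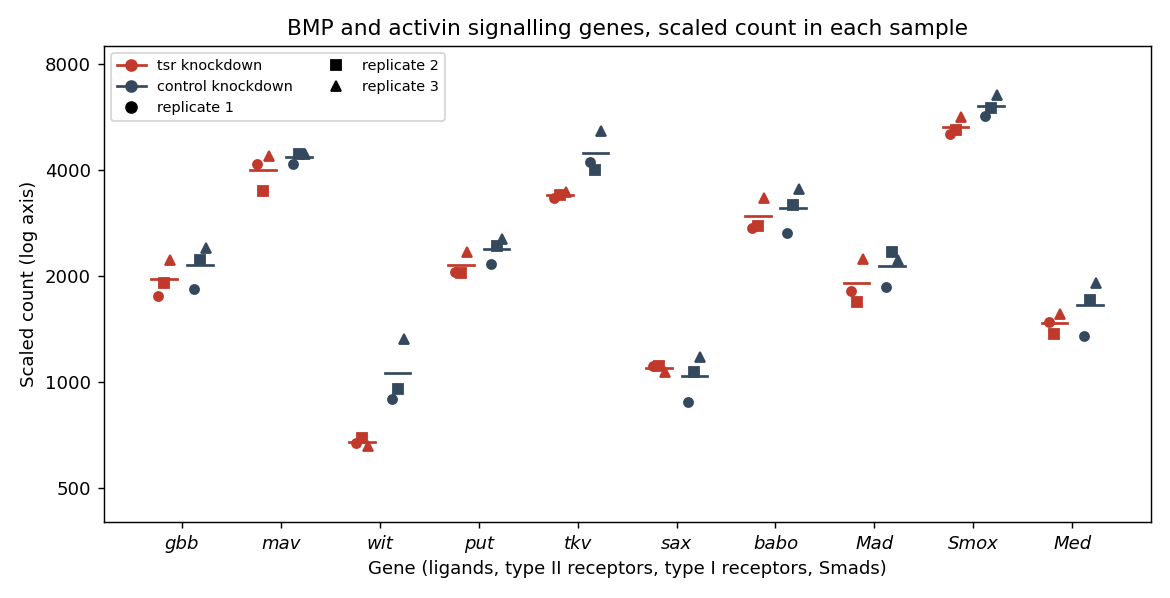
Scaled count of each BMP and activin signalling gene (log axis) in the 3 tsr knockdown samples (left of each pair, red) and the 3 control knockdown samples (right, dark), with symbols for replicates and a line at each group mean. The groups are separate for wit, tkv and Smox and overlap for the other 7 genes.

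**Figure D2:**
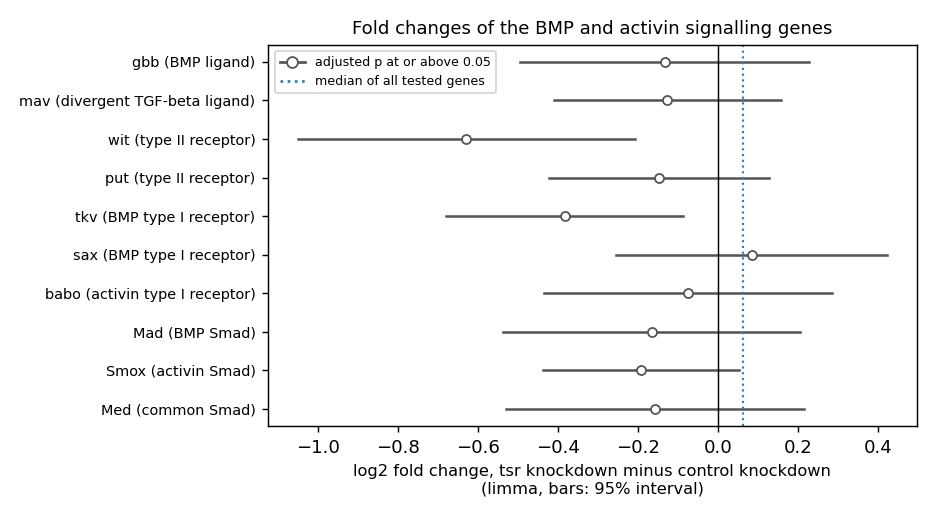
Log2 fold change of each gene, tsr knockdown minus control knockdown, with its 95% interval from limma; open circles have an adjusted p-value of at least 0.05 and the dotted line marks the median of all tested genes at 0.06. Only the intervals of wit and tkv lie wholly below 0.

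The values of both ligand genes overlapped between the groups. The gene gbb (glass bottom boat) encodes the BMP that muscle sends to the motor neuron. It had 1751, 1910.4 and 2217 scaled counts in the tsr knockdown, against 1837, 2223 and 2395 in the control knockdown. The groups overlapped, with a log2 fold change of -0.13 (95% interval -0.49 to 0.23, limma adjusted p = 0.581). The interval thus runs from 0.71 to 1.17 as a fold change of gbb. The gene mav (maverick) encodes a divergent TGF-beta ligand that, at the neuromuscular junction, is known as a glial signal to muscle. It had 4158, 3477 and 4371 scaled counts in the tsr knockdown and 4169, 4437 and 4448 in the control knockdown. Only tsr knockdown replicate 2 lay well below the controls, and the log2 fold change of mav was -0.13 (95% interval -0.41 to 0.16, limma adjusted p = 0.504).

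Of the type II receptor genes, wit had the lowest values in the tsr knockdown. The gene wit (wishful thinking) encodes the BMP type II receptor of motor neurons. It had 672, 693 and 659.7 scaled counts in the tsr knockdown samples, against 897, 959 and 1325 in the control samples. Every tsr knockdown sample was below every control sample, and the tsr knockdown samples were close together, at 674.8 ± 16.5, while the controls were spread, at 1060.2 ± 231 (SD, n = 3 each). Among all tested genes, 36.4% had groups that did not overlap, and 19.6% did so with lower values in the tsr knockdown. The log2 fold change of wit was -0.63 (SE 0.17, 95% interval -1.05 to -0.21), with an unadjusted p-value of 0.0106 and an adjusted p-value of 0.0684 by limma. With DESeq2 the log2 fold change was -0.66 (adjusted p = 0.0109), and over the 13 alternatives on all 6 samples the adjusted p ran from 0.0109 to 0.165. The control mean owed much to control replicate 3, the highest control. Without that sample the log2 fold change of wit was -0.46 (limma adjusted p = 0.106). It was -0.74 without control replicate 1 (adjusted p = 0.0615), -0.69 without control replicate 2 (adjusted p = 0.0519) and -0.65 to -0.61 with 1 tsr knockdown sample left out, so that it stayed below 0 and missed the threshold in all 6 of these fits.

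The gene put (punt) encodes the type II receptor shared by the BMP and activin branches. It had 2057, 2043 and 2346 scaled counts in the tsr knockdown, against 2167, 2426 and 2551 in the control knockdown. These values overlapped, with a log2 fold change of -0.15 (95% interval -0.42 to 0.13, limma adjusted p = 0.435). Within each sample, the ratio of wit to put does not depend on the scaling. Its log2 value averaged -1.67 ± 0.14 in the tsr knockdown and -1.19 ± 0.21 in the control knockdown (SD, n = 3 each). The 3 tsr knockdown ratios lay below the 3 control ratios, the highest being -1.56 in the tsr knockdown and the lowest -1.34 in the control knockdown. The difference between these ratios was not tested.

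Of the type I receptor genes, tkv (thickveins) and sax (saxophone) encode receptors of the BMP branch. The gene tkv had 3339, 3404 and 3474 scaled counts in the tsr knockdown samples, against 4223, 4010.1 and 5178 in the control samples. The groups were again separate, with a tight tsr knockdown group at 3406 ± 67.2 and a wider control group at 4470.5 ± 622 (SD, n = 3 each). The log2 fold change of tkv was -0.38 (SE 0.12, 95% interval -0.68 to -0.09), with an unadjusted p-value of 0.0194 and an adjusted p-value of 0.0972 by limma. DESeq2 gave -0.40 (adjusted p = 0.0226), and the adjusted p ran from 0.0206 to 0.25 over the 13 alternatives on all 6 samples. Without control replicate 3, which was the highest control for tkv as for wit, the log2 fold change was -0.27 (limma adjusted p = 0.159). It was -0.42 without control replicate 1 (adjusted p = 0.112), -0.46 without control replicate 2 (adjusted p = 0.0553) and -0.40 to -0.37 with 1 tsr knockdown sample left out, again missing the threshold each time.

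The gene sax was the only member with a log2 fold change above 0, and its direction was not stable. It had 1110.2, 1111 and 1066 scaled counts in the tsr knockdown, against 878, 1065 and 1182 in the control knockdown. The log2 fold change was 0.08 (95% interval -0.25 to 0.42, limma adjusted p = 0.715), turned to -0.03 without control replicate 1, and was -0.60 when samples were scaled to muscle markers, where the median of all genes moved to -0.62. The log2 ratio of tkv to sax averaged 1.64 ± 0.06 in the tsr knockdown and 2.10 ± 0.18 in the control knockdown (SD, n = 3 each), and the groups did not overlap; this difference was not tested either. Set per kilobase of annotated exon, tkv made up 44.5% ± 0.985 of the summed type I receptor level in the tsr knockdown and 50.9% ± 3.03 in the control knockdown (SD, n = 3 each). The share of sax was 22.2% ± 1.38 in the tsr knockdown and 18.3% ± 1.17 in the control knockdown, while that of babo overlapped between the groups, at 33.3% ± 2.35 and 30.8% ± 1.85 in tsr and control knockdown.

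**Figure D3:**
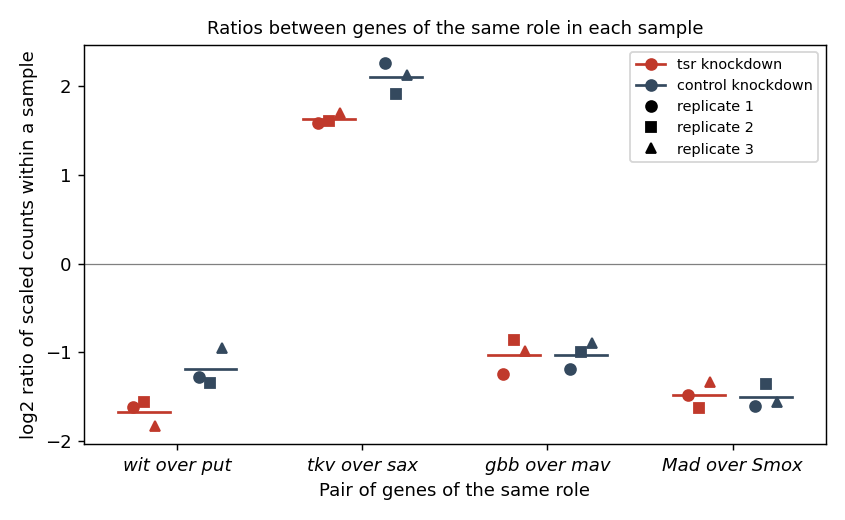
Log2 ratio of the scaled counts of gene pairs of the same role within each sample, for tsr knockdown (left of each pair, red) and control knockdown (right, dark), with symbols for replicates and a line at each group mean. The ratios of wit to put and of tkv to sax are lower in every tsr knockdown sample than in every control sample, and those of gbb to mav and Mad to Smox overlap.

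The gene babo (baboon) encodes the type I receptor of the activin branch. It had 2745, 2779 and 3332 scaled counts in the tsr knockdown, against 2642, 3179 and 3538 in the control knockdown. The groups overlapped throughout, and the log2 fold change was -0.08 (95% interval -0.43 to 0.28, limma adjusted p = 0.76). Its sign turned with upper quartile scaling, to 0.02, where the median of all genes was 0.15, and without control replicate 3, also to 0.02.

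The Smad genes kept nearly the same proportions in the groups. The gene Smox encodes Smad2 of the fly, the Smad that Babo phosphorylates. It had 5057, 5209 and 5647 scaled counts in the tsr knockdown, against 5675, 6001 and 6532 in the control knockdown. All 3 tsr knockdown values were below the controls, but the highest of them nearly touched the lowest control, and the log2 fold change was -0.19 (95% interval -0.44 to 0.05, limma adjusted p = 0.275). The gene Mad encodes the Smad of the BMP branch. It had 1816, 1689 and 2233 scaled counts in the tsr knockdown and 1861, 2341 and 2222 in the control knockdown. These overlapped, with a log2 fold change of -0.17 (95% interval -0.54 to 0.21, limma adjusted p = 0.505). The gene Med encodes the common Smad that both branches share. It had 1484, 1372 and 1559.8 scaled counts in the tsr knockdown and 1354, 1712 and 1905 in the control knockdown, with a log2 fold change of -0.16 (95% interval -0.53 to 0.21, limma adjusted p = 0.525). Per kilobase of exon, Smox made up 54.3% ± 1.75 of the summed Smad level in the tsr knockdown and 54.8% ± 2.20 in the control knockdown, and Mad 25.8% ± 1.80 and 25.6% ± 1.51 in tsr and control knockdown (SD, n = 3 each).

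A p-value above the threshold does not show that these genes were equal. For the 8 genes other than wit and tkv, the 95% intervals reached down to a fold of 0.69 for Mad and up to 1.34 for sax. The other 6 genes have intervals of their own between these bounds, given above on the log2 scale.

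The members could also be ranked by abundance, as scaled counts per kilobase of annotated exon. In the tsr knockdown mav was highest, at 1480 ± 173, followed by Smox at 1173 ± 67.7, gbb at 1162 ± 141 and tkv at 768 ± 15.2 (SD, n = 3). In the control knockdown the order of these 4 was the same, with mav at 1609 ± 58.5, Smox at 1342 ± 95.6, gbb at 1276 ± 169 and tkv at 1008 ± 140. The next genes, babo, Mad and put, formed a group between 535 and 577 in the tsr knockdown and between 593 and 628 in the control knockdown. Med, sax and wit closed the order, wit being lowest at 160.03 ± 3.92 in the tsr knockdown and 251 ± 54.9 in the control knockdown. Among neighbours in the control order, only mav and Smox, and tkv and Mad, had ranges that did not overlap. The counting model was not given. A length from another annotation shifts the level of a gene by the same factor in all samples. That factor can differ between genes, so the order above and the shares per kilobase could change.

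The places of the genes in the genome bear on what reads could be assigned to them. In Ensembl's dm6 annotation, wit lies on 3L:4064152-4071717 (minus strand), and its exons overlap those of dib on the other strand. The gene dib was nearly silent, at 27.9, 14.7 and 2.32 scaled counts in the tsr knockdown and 6.67, 12.3 and 42.4 in the control knockdown. The gene tkv spans 2L:5219000-5271384 (minus strand), and its exons overlap those of TpnC25D, a troponin C gene of the contractile apparatus, on the other strand. TpnC25D had 4255, 3518 and 4568 scaled counts in the tsr knockdown, against 2514, 2383 and 1911 in the control knockdown. As a group, the tsr knockdown samples were thus higher for TpnC25D (log2 fold change 0.86, limma adjusted p = 0.0262) and lower for tkv. Within the tsr knockdown, both genes were highest in replicate 3, while in control replicate 3 tkv was highest and TpnC25D lowest. Whether counting used strand is not given in the sources used here, so reads over both genes may have been left out or misassigned, and their part in the tkv values was not tested. Exons of Smox overlap CG2120, and exons of Med overlap CycG and Mnat9, on the other strand. CycG, a cyclin gene, was abundant, at 31994 ± 2898 scaled counts in the tsr knockdown and 38420.0 ± 1775 in the control knockdown (SD, n = 3 each). The identifier of Med in the table (FBgn0011655) was not found in the annotation, which gives Med under another identifier, so its length was taken by symbol. The genes gbb, mav, put, sax, babo and Mad overlap no other annotated gene.

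Other genes of the pathway were then examined. Of 41 genes listed, 38 were in the table and all 38 had a mean of at least 10. Of these, 2 rose and 2 fell by limma, which is 10.5% and close to the 11.6% of all tested genes. Their median log2 fold change was -0.04, against 0.06 for all tested genes, a value that changed with the setting as given above. By role, 1 of 4 ligands, 1 of 14 extracellular or membrane modulators, 1 of 13 intracellular modulators and 1 of 7 transcription cofactors or targets passed.

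**Figure D4:**
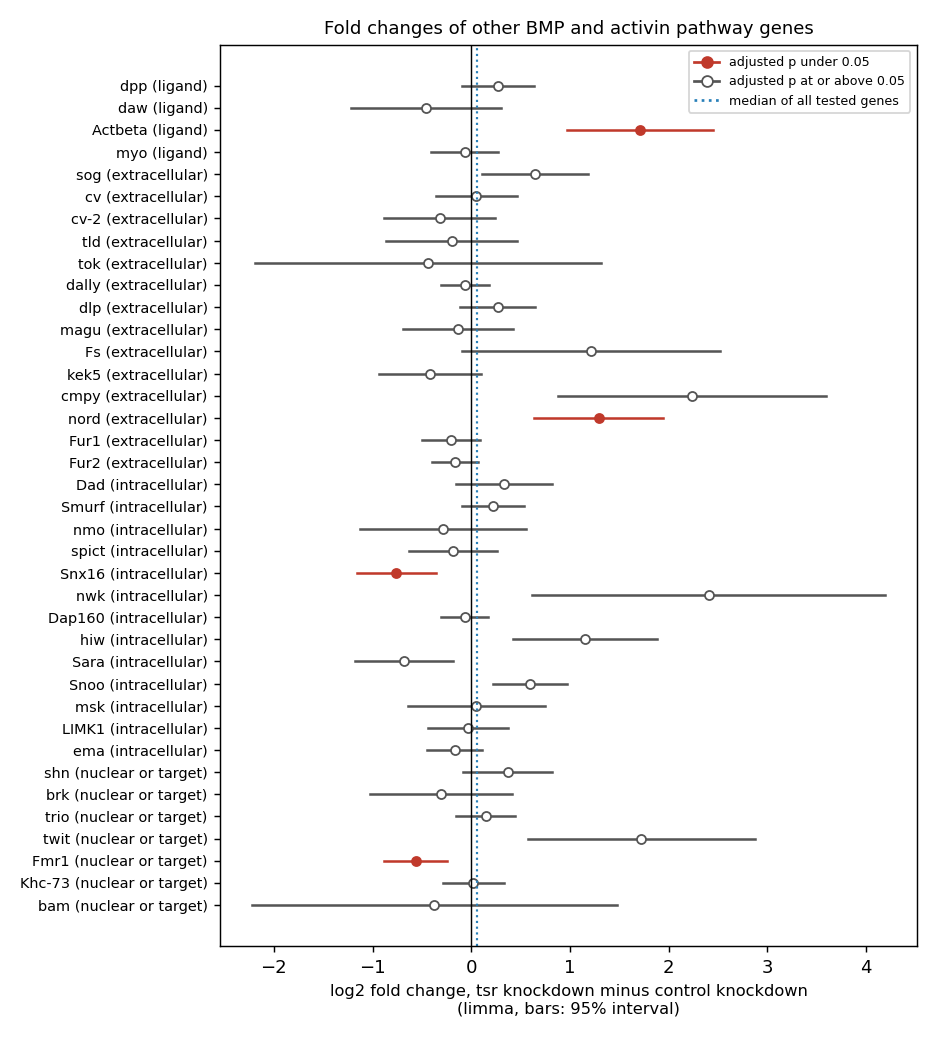
Log2 fold change, tsr knockdown minus control knockdown, with 95% intervals from limma for the 38 other pathway genes, ordered by role; filled red points have an adjusted p-value under 0.05. Actbeta and nord are higher, and Snx16 and Fmr1 lower. The dotted line marks the median of all genes at 0.06, and the genes not called run from -0.68 for Sara to 2.41 for nwk.

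Actbeta encodes an activin ligand made by neurons, motor neurons included. It had 282, 306 and 287 scaled counts in the tsr knockdown, against 111, 58.3 and 106.5 in the control knockdown. Every tsr knockdown sample was well above every control, and Actbeta rose with a log2 fold change of 1.71 (SE 0.30, limma adjusted p = 0.0246). The gene nord, which encodes a secreted modulator of BMP signalling, had 236, 283 and 315 scaled counts in the tsr knockdown and 94.5, 98.7 and 152 in the control knockdown. It rose as well, with a log2 fold change of 1.29 (SE 0.27, limma adjusted p = 0.0353). The other ligand genes dpp, daw and myo had log2 fold changes from -0.46 to 0.27, and none passed the threshold.

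Snx16 encodes a sorting nexin of early endosomes that acts in synaptic BMP receptor signalling. It had 425, 451 and 488 scaled counts in the tsr knockdown, against 730.2, 927 and 669.8 in the control knockdown, and fell with a log2 fold change of -0.76 (SE 0.16, limma adjusted p = 0.0393). Fmr1 encodes the RNA-binding translational regulator FMRP, which shapes the larval neuromuscular junction. It had 4069, 4208 and 3279 scaled counts in the tsr knockdown, against 6048, 5248 and 5694 in the control knockdown, and fell with a log2 fold change of -0.56 (SE 0.13, limma adjusted p = 0.0455). The calls of these 4 genes were close to the threshold. Of the 6 fits that each left out 1 sample, Actbeta kept its call in 2 and nord, Snx16 and Fmr1 in 1 each. Snx16 overlaps an exon of Dlish on the other strand.

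Among the genes of the list that act in motor neurons, several had high log2 fold changes without a limma call. They were picked out after their values were seen. The gene cmpy (crimpy) encodes a membrane protein that binds Gbb in motor neurons and had 251, 286 and 184 scaled counts in the tsr knockdown, against 87.8, 21.3 and 63.2 in the control knockdown (log2 fold change 2.24, limma adjusted p = 0.0541). The gene twit, a target of Wit signalling in motor neurons, had 315, 380.2 and 340.3 scaled counts in the tsr knockdown and 133, 49.3 and 167 in the control knockdown (1.73, adjusted p = 0.0672). The genes nwk and hiw, which restrain synaptic growth, had log2 fold changes of 2.41 and 1.16 (limma adjusted p = 0.088 and 0.0605). DESeq2 called these 4 genes higher, as it did 11.1% of all genes. Other genes of the list that act at the synapse had log2 fold changes near 0, with 0.15 for trio, 0.02 for Khc-73 and -0.06 for Dap160. Among other listed targets or modulators, Dad and brk had log2 fold changes of 0.33 and -0.31 (limma adjusted p = 0.351 and 0.524). The groups overlapped for both. Genes near a call were not only those of motor neurons, nor all higher. Snoo had a log2 fold change of 0.60 (limma adjusted p = 0.0592) and Sara one of -0.68 (limma adjusted p = 0.0847). Both had groups that did not overlap, and both were also picked out after their values were seen.

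Markers of several tissues differed between the groups. All 10 markers of neurons had a positive log2 fold change and groups that did not overlap. Their median was 2.14, and 2 of them passed the threshold. Among all tested genes, 36.4% had groups that did not overlap and 11.6% passed, 4.58% as higher and 7.02% as lower. The same shares are the background for the counts of the other marker lists below. Relative to the mean of the controls, the median of the neuron markers stood at 2.10, 2.31 and 2.05 on the log2 scale in the tsr knockdown samples, and at 0.84, -1.33 and 0.58 in the controls. The values of Actbeta followed the same order of controls, at 1.66, 1.78 and 1.69 in the tsr knockdown and 0.33, -0.59 and 0.27 in the controls. Control replicate 2 was thus lowest for the median of the neuron markers and for Actbeta, cmpy, twit, nwk and hiw. It was not lowest for every such gene. The neuron marker Syt1 was highest there, at 2280 scaled counts against 1547 and 1363 in control replicates 1 and 3. The called gene nord was lowest in control replicate 1, at -0.25, -0.18 and 0.43 in the controls. The receptor gene wit, itself expressed in motor neurons, stood at -0.63, -0.59 and -0.66 in the tsr knockdown and at -0.22, -0.12 and 0.34 in the controls, and so lay lower in the group where neuron markers were higher. The 4 glia markers also had log2 fold changes above 0, and nrv2 passed the threshold (0.67, limma adjusted p = 0.0199). Of the 8 epidermis and cuticle markers 7 lay below 0, and the larval cuticle protein genes Lcp1 and Lcp2 fell, with log2 fold changes of -4.74 and -4.19. This list summed to 1286180 to 2142290 scaled counts in the tsr knockdown and 4213790 to 4939470 in the control knockdown. Among 6 fat body markers Lsp1gamma rose (1.22) and Fbp1 fell (-5.55). Lower calls were also made for eater and He of 6 blood cell markers, hth of 7 imaginal disc markers and serp of 4 trachea markers. No call was made for the gut, salivary gland and testis lists, whose sums differed widely between replicates. The salivary gland list summed to 19.9, 10456 and 46.5 scaled counts in the tsr knockdown samples, and to 98773, 38996 and 29.8 in the control samples. The part of neuronal RNA, or of RNA from these other tissues, in the values of Actbeta, wit and the other genes was not tested. The 10 muscle markers also had log2 fold changes above 0, with a median of 0.66, although none of the 10 passed the threshold. When each sample was scaled to these markers, wit had -1.32, tkv -1.07, Smox -0.88, Mad -0.85, put -0.84 and mav -0.82, all with a limma adjusted p under the threshold. The median of all genes then moved to -0.62 and 24.6% of all tested genes were called lower.

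**Figure D5:**
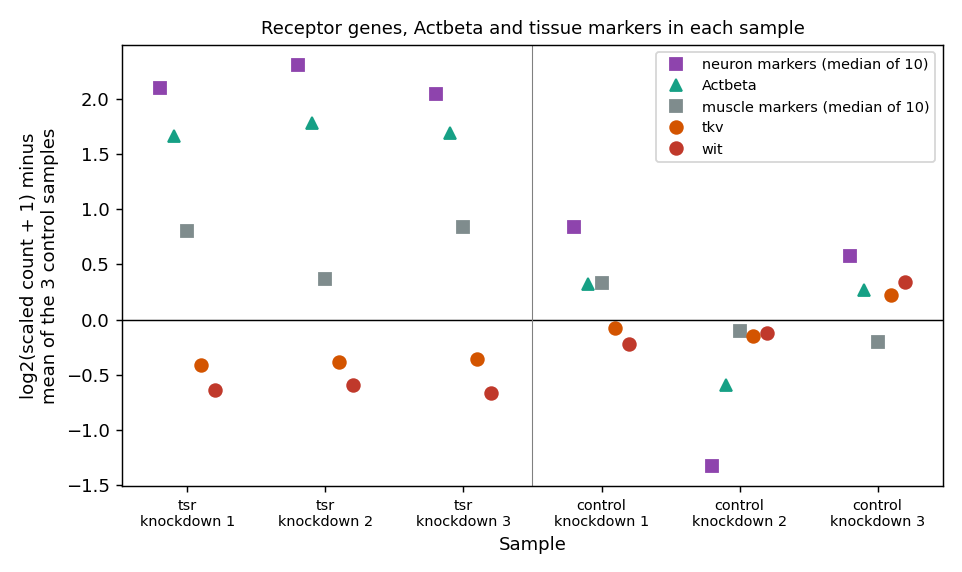
Log2(scaled count + 1) minus the mean of the 3 control samples, for wit, tkv and Actbeta and for the medians of 10 neuron and 10 muscle markers, in the tsr knockdown samples (left) and control samples (right). Neuron markers and Actbeta are at 1.66 or more in each tsr knockdown sample, while wit and tkv lie below every control.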

How the data were processed

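The authors deposited 1 table of scaled counts, a signal per gene and sample: a read count divided by 1 size factor per sample. STAR 2.5.0a, Picard, HTSeq 0.5.3 and the build dm6 are named in the submitters' processing notes. The annotation release, the use of strand and the scaling tool are not given in the sources used here. Per the labels' protocols, RNA was extracted with Trizol and amplified with a SMARTer kit, and the run was PE50; reads without molecular identifiers are not independent molecules. All values in a column were whole multiples of 1 step (100% within 0.01 of a whole read), so reads were recovered by division for count tests. The 4 rows of reads outside genes, 19.4% to 27.0% of a column's total, were left out.

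The columns were matched to samples by title. The main test was limma 3.58.1 (R 4.3.3; eBayes with a trend) on log2(value + 1) of all 6 samples, over the 11720 genes with a mean of at least 10, with Benjamini-Hochberg adjustment. Adding 1 shrinks the fold change of low genes. Replicates are separate pools of larvae per the design text and labels; none agreed within sampling noise (chi-square per degree of freedom of 75.5 or more). With 3 samples per group, an exact permutation test could not go below p = 0.1. Members, pathway genes and marker lists were chosen with earlier results of these data known. The pathway genes named were those called by limma, plus those marked as picked out later; genes of like pattern were to be named for called members only, so none are. The pathway genes scw, tsg and srw were not analysed here. Gene names (13478 of 13517 identifiers matched) served to restore 5 date-like symbols. Positions and exon lengths came from Ensembl release 115. The script was tested on simulated data. Alternatives used other pseudocounts, filters, scalings, weights, a replicate block, each sample left out, and edgeR 4.0.16 and DESeq2 1.42.0.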

Additional observations from a re-analysis of the deposited data

How the results depend on the processing

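The call of 0 of 10 BMP and activin genes held in 10 of the 13 alternatives on all 6 samples and in all 6 fits on 5 samples. It moved to 2 lower genes (wit and tkv) with DESeq2, which called 13.9% of all genes lower, and with array quality weights (9.73% of all genes lower), which gave tsr knockdown replicate 1 a weight of 7.16 against at most 1.57 for the others, and to 6 lower genes with scaling to muscle markers (24.6% of all genes lower). No alternative called a member higher. Over single members, 118 of 130 values on all 6 samples and 58 of 60 with 1 sample left out kept direction and side of the threshold. The exceptions in direction were babo, at 0.0153 with upper quartile scaling and -0.190 to 0.0208 with 1 sample left out (0.0208 without control replicate 3), and sax, at -0.605 with scaling to muscle markers and -0.0339 (without control replicate 1) to 0.180 with 1 sample left out.

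Among the other pathway genes, 2 higher and 2 lower, the higher count was 4 with a minimum mean of 50, 0 with scaling to muscle markers, 6 with quality weights, 1 with edgeR on DESeq2 size factors and 8 with DESeq2. The lower count was 1 with TMM, upper quartile and equal totals scaling and with both edgeR fits, and 10 with scaling to muscle markers. Leaving out 1 sample gave 0 to 5 higher and 0 to 2 lower. Over all genes, 537 higher and 823 lower, scaling to muscle markers gave 201 and 2885, quality weights 1031 higher, edgeR with DESeq2 size factors 340 higher, and DESeq2 1258 and 1569. Leaving out 1 sample gave 41 (without tsr knockdown replicate 1) to 2426 higher (without control replicate 2) and 143 to 921 lower. The cause was not tested. tsr kept its call throughout.

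With the replicate block, 0 members, 0 higher and 0 lower pathway genes, and 24 higher and 88 lower genes in all were called. Same-numbered samples deviated together with correlations of -0.46, -0.03 and 0.19, so the numbers were not taken as pairs.

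Members had 568 to 7236 reads per sample, so depth limits them less than it limits the low genes of the table.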

Other observations

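Control replicate 1 had the lowest control value for 9 of the 10 members, as it did for 41.9% of all tested genes, and control replicate 3 the highest for 9 of the 10, against 27.3% of all tested genes. In the tsr knockdown group, replicate 3 was highest for 8 of the 10 genes, the exceptions being wit and sax, and for 38.7% of all tested genes. These orders describe the deposited scaling, with no test of the shares, and their cause was not tested.

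By the median over genes, the replicates were closer together in the tsr knockdown than in the control knockdown. The median SD of the members on the log2 scale was 0.10 in the tsr knockdown and 0.20 in the control knockdown. For all tested genes it was 0.24 and 0.35 in tsr and control knockdown. The tested genes reached down to a mean of 10, whereas all members lay well above it, and genes of like abundance were not compared. The tightest member was tkv in the tsr knockdown, at 0.03, and the widest was wit in the control knockdown, at 0.30. The genes mav and Mad went the other way. Their SDs were 467 and 285 scaled counts in the tsr knockdown, against 158 and 250 in the control knockdown.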
